A study of Bos taurus with 12 samples.

Results

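Mesenchymal stem cells from bovine bone marrow were compared after a week at atmospheric oxygen (21%) with and without transforming growth factor β3 (TGF-β3), a secreted growth factor used to start cartilage formation in culture. The comparison was defined by the array titles: the 3 arrays of cells kept at normoxia with TGF-β3 were set against the 3 arrays of cells kept at normoxia without it, and arrays were paired by the donor number in the title. These are 6 of the 12 arrays of the study. The cells came from femurs and tibiae of 3 juvenile cattle donors under 6 months of age, and the labels give no genetic change and no strain. All cells were first grown through a single passage at 21% oxygen without TGF-β3, and were then passaged and expanded for 1 week in a high-glucose, serum-containing medium, either alone or with TGF-β3 at 10 ng/mL. The other 6 arrays hold cells of the same donors expanded at 2% oxygen, without and with TGF-β3, and were used for a comparison at the end. Each array measured total RNA of a whole culture, so that fewer cells of a type and less RNA per cell cannot be told apart.

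The deposited values are log2 signals of 26773 probe sets, and the medians of the 6 arrays lay between 6.59 and 6.65. A change is the log2 difference of TGF-β3 minus untreated, averaged over the 3 donors, ± its standard error (n = 3 donors per group). It was tested with limma, with donor as a term and all 12 arrays in the fit, and p-values were adjusted over all probe sets by the method of Benjamini and Hochberg. The standard error is that of the limma fit, from a spread pooled over the 12 arrays and moderated by that of all probe sets. It does not measure the spread of the 3 donor differences at 21%. For ABI3BP these were -3.65, -7.34 and -6.09, and the standard error was 0.56. A gene is called, and is said to have risen or fallen, at an adjusted p under 0.05. Array values are log2 signals given in the order of donors 1, 2 and 3. Arrays left out in turn are named by group and donor (treated donor 2). Precision is limited by there being 3 arrays in each group.

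TGF-β ligands are stored outside the cell in latent complexes and, once released, bind a pair of serine/threonine kinase receptors (TGFBR1 and TGFBR2), helped by the coreceptors TGFBR3 and endoglin. The receptors phosphorylate SMAD2 and SMAD3, which enter the nucleus with SMAD4 and switch genes on and off. Among the genes switched on are inhibitors of the pathway itself, such as SMAD7, SKIL and PMEPA1. In stromal cells the pathway is known for building contractile fibres and matrix, and in marrow stromal cells for promoting cartilage and restraining fat.

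The labelled cell type was checked against marker lists. Of 21 mesenchymal stromal markers, 14 had an untreated mean above the median of all probe sets (6.63), among them the surface proteins CD44, THY1, NT5E, ENG and ALCAM. The same held for 2 of 11 haematopoietic markers, CD14 and CD68, for 1 of 10 endothelial markers, ERG, and for none of 9 erythroid and none of 8 muscle or neural markers. Of 8 osteoclast markers, CTSK and NFATC1 were above it, and both fell with TGF-β3, CTSK by 0.56 ± 0.078 (adjusted p = 0.00338) and NFATC1, a transcription factor of osteoclasts and lymphocytes, by 0.91 ± 0.15 (adjusted p = 0.00872). The osteoclast list was at 6.11 to 6.18 untreated and 5.92 to 6.00 with TGF-β3. Probe sets differ in brightness, so these counts only place the lists. The mean log2 signal of the haematopoietic list was 5.41 to 5.48 untreated and 5.41 to 5.45 with TGF-β3, and PTPRC, the pan-leukocyte surface marker, differed by -0.12 ± 0.10. The endothelial list was at 5.76 to 5.86 untreated and 6.00 to 6.11 with TGF-β3, and PECAM1 was the called member. PECAM1, an adhesion molecule of endothelial cells, platelets and leukocytes, had 5.88, 6.07 and 5.85 without TGF-β3 and 7.64, 7.90 and 8.65 with it, and rose by 2.13 ± 0.23 (adjusted p = 0.00102). CDH5, VWF and KDR, which define endothelial cells, differed by -0.06 ± 0.11, -0.10 ± 0.085 and 0.11 ± 0.093, and their untreated means (5.92, 6.16 and 4.45) lay below the median of all probe sets. No member of the haematopoietic, erythroid, or muscle or neural lists was called, and their part in the results below was not tested. NFATC1 lost the call without treated donor 2 or untreated donor 2 (adjusted p up to 0.0508). CTSK was not called without the donor term (adjusted p = 0.11).

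TGF-β3 changed 1701 of 26773 probe sets at 21% oxygen (6.35%), of which 789 rose (2.95%) and 912 fell (3.41%). Among those that rose, 671 carry a single gene symbol, 145 rose at least 2-fold and 22 at least 4-fold. Of those that fell, 833 carry a single symbol, 161 fell at least 2-fold and 14 at least 4-fold. The median change was 0.61 for the probe sets that rose and -0.59 for those that fell, against 0.01 over all probe sets. Dim probe sets were a minority: 183 of the 789 that rose had an untreated mean below the median of all probe sets, and 183 of the 912 that fell had a treated mean below it. Each of the 1701 had differences of a single sign over its 3 donors, which 40.2% of all probe sets had. The treated and untreated arrays did not overlap for 718 of those that rose and 817 of those that fell, and for 20.7% of all probe sets. These properties follow in part from passing the test. Shares of a gene list that were called are given below against the 6.35% of all probe sets. That share is a low reference, because list members all carry a single symbol. Of the 18550 probe sets with a single symbol, these 671 rose and 833 fell. A fit on 1 probe set for each of 18092 symbols called 1964. List shares only somewhat above 6.35% are thus near that of named genes at large. Without the donor term 736 probe sets were called (2.75%), 342 higher (1.28%) and 394 lower (1.47%), and all 736 were among the 1701. The count was 424 without donor 1 (1.58%), 181 without donor 2 (0.676%) and 834 without donor 3 (3.12%), each with fewer residual degrees of freedom. Leaving out a single array gave 1027, 730 and 1068 calls for the treated arrays of donors 1, 2 and 3 and 1057, 771 and 905 for the untreated ones.

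**Figure D1:**
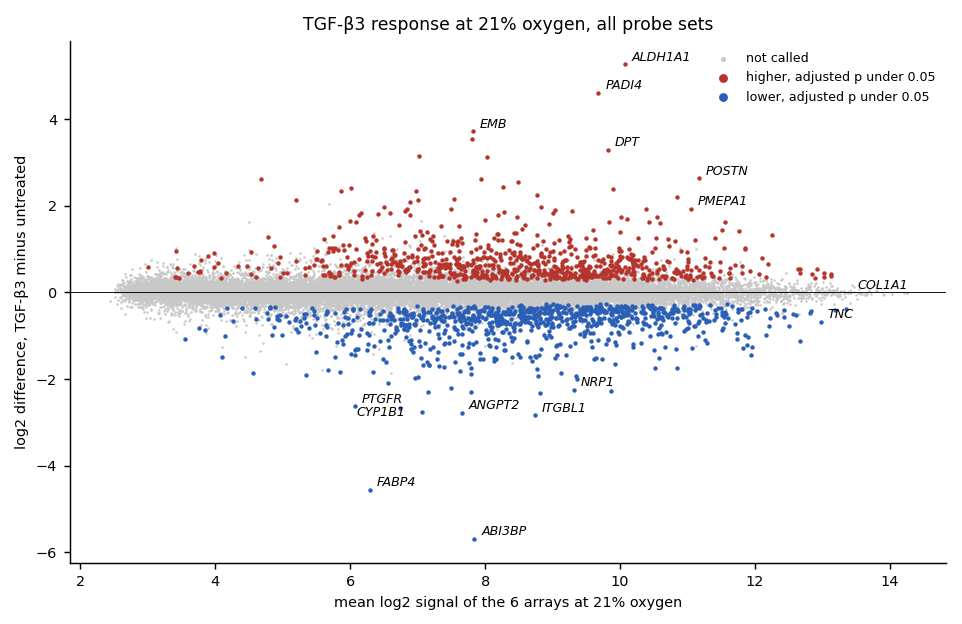
Log2 difference of TGF-β3 minus untreated (vertical axis) against the mean log2 signal of the 6 arrays at 21% oxygen (horizontal axis), 1 point per probe set, with called probe sets in red (789 higher) and blue (912 lower). Changes beyond 4-fold (2 on the log2 scale) occur over much of the signal range, and COL1A1, among the brightest probe sets, lies at 0.

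The largest rise was that of ALDH1A1, which makes retinoic acid from retinaldehyde, with 8.61, 7.97 and 5.72 without TGF-β3 and 12.77, 12.98 and 12.36 with it, a change of 5.27 ± 0.40 (38.5-fold, adjusted p = 0.000186). The treated arrays lay within 0.62 of each other, whereas untreated cells of donor 3 were far below those of the other donors. PADI4, which converts arginine in proteins to citrulline, had 7.66, 7.68 and 6.78 without TGF-β3 and 12.25, 12.53 and 11.16 with it and rose by 4.61 ± 0.15 (24.5-fold, adjusted p = 2.74e-06), the smallest adjusted p of the genes named. Its paralogs PADI1, PADI2, PADI3 and PADI6 were not called and differed by 0.09, -0.08, 0.14 and -0.05. EMB, an immunoglobulin-family partner of lactate transporters, rose by 3.72 ± 0.33 to 9.64, 9.72 and 9.67, from untreated values that differed between donors (6.99, 5.88 and 5.00). ATP6AP1L, named for its likeness to an accessory protein of the vacuolar proton pump, rose by 3.54 ± 0.27, and PRR5L, a binding partner of the kinase complex mTORC2, by 3.14 ± 0.22. NETO1, an auxiliary subunit of glutamate receptors in neurons, rose by 2.41 ± 0.25. Its untreated mean (4.81) lay below the lower quartile of all probe sets (4.94) and was not tested against background.

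ABI3BP, a matrix protein, had the largest fall, with 8.43, 11.99 and 11.63 without TGF-β3 and 4.78, 4.66 and 5.54 with it, a change of -5.69 ± 0.56 (adjusted p = 0.000627). The treated arrays of donors 1 and 2 were below the lower quartile of all probe sets (4.94), and the untreated array of donor 1 lay well below those of donors 2 and 3. FABP4, which carries fatty acids inside fat cells, had 8.60, 8.15 and 8.95 without TGF-β3 and 3.37, 3.52 and 5.12 with it and fell by 4.57 ± 0.22 (adjusted p = 5.79e-05). No detection call comes with these values, so the treated levels of ABI3BP and FABP4 were not tested against the background of the arrays. GPNMB, a transmembrane glycoprotein of osteoblasts and macrophages, fell by 2.32 ± 0.22 from 8.69, 10.04 and 11.20 to 7.08, 7.68 and 8.20, so that treated donor 3 and untreated donor 1 were close while every donor fell. PLS1, which bundles actin in microvilli, fell by 2.31 ± 0.21 and PDPN, a mucin-like surface protein of stromal and lymphatic cells, by 2.28 ± 0.23. The probe set of ULBP21, a ligand of the NKG2D receptor from a cattle gene family with near-identical copies, fell by 2.68 ± 0.25, and which copies it reads was not tested. Each of these genes kept the call without any 1 array. GPNMB and PDPN were not called without the donor term (adjusted p between 0.0779 and 0.0982).

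**Figure D2:**
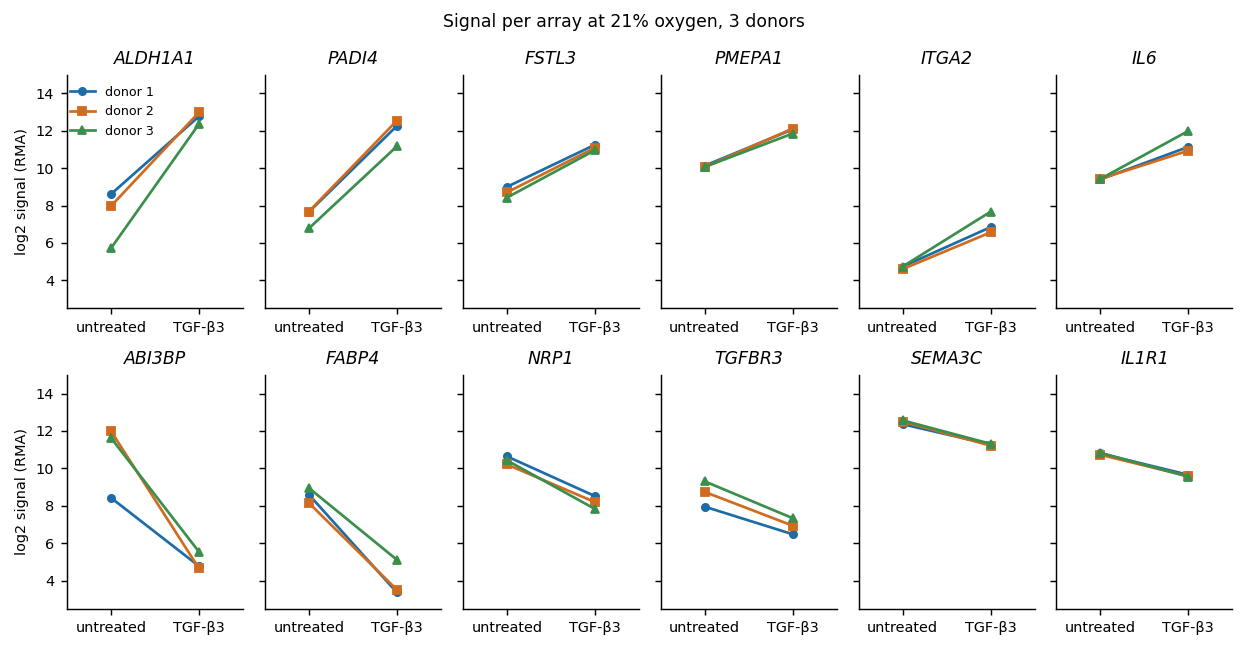
Log2 signal (vertical axis) of 12 genes without and with TGF-β3 at 21% oxygen, with a line and symbol for each of 3 donors. In the upper row each donor rose (ALDH1A1, PADI4, FSTL3, PMEPA1, ITGA2 and IL6) and in the lower row each fell (ABI3BP, FABP4, NRP1, TGFBR3, SEMA3C and IL1R1), and treated and untreated arrays do not overlap in any panel.

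Within the TGF-β pathway itself the intracellular and secreted inhibitors held the most called genes. Of 20 measured inhibitors of TGF-β or bone morphogenetic protein (BMP) signalling, 7 rose and none fell (35% called), with a median of 0.14. FSTL3, a secreted protein that traps activins, had 8.99, 8.70 and 8.42 without TGF-β3 and 11.24, 11.08 and 10.95 with it and rose by 2.39 ± 0.12 (adjusted p = 6.33e-05). PMEPA1, which holds SMAD2 and SMAD3 away from the receptor, had 10.13, 10.05 and 10.06 without TGF-β3 and 12.07, 12.11 and 11.85 with it and rose by 1.93 ± 0.12 (adjusted p = 9.78e-05). For both, the 3 donors lay close together in each group and the groups were far apart. SKIL, a nuclear corepressor of SMADs, rose by 1.24 ± 0.075 (adjusted p = 8.14e-05), and LDLRAD4, a membrane protein related to PMEPA1, by 1.09 ± 0.16 (adjusted p = 0.0045). SMAD7, the inhibitory SMAD, had 8.53, 8.29 and 8.54 without TGF-β3 and 9.26, 8.82 and 9.27 with it and rose by 0.67 ± 0.10 (adjusted p = 0.00515). TGIF1 (0.53 ± 0.12), a corepressor, and SMURF2 (0.45 ± 0.099), a ubiquitin ligase that removes receptors, were the others that rose. NOG, a BMP trap, was not called (0.88 ± 0.25, adjusted p = 0.0759), nor was SMAD6 (-0.67 ± 0.23, adjusted p = 0.135), the inhibitory SMAD of BMP signals. TGIF1 lost the call without treated donor 2 or 3 or untreated donor 1, 2 or 3 (adjusted p up to 0.132), and SMURF2 without each of the 6 arrays in turn (adjusted p up to 0.114). SMAD7, TGIF1 and SMURF2 were not called without the donor term (adjusted p between 0.096 and 0.189). SMAD7 was also not called by limma without donor 1, 2 or 3 (adjusted p = 0.0901, 0.0518 and 0.0594). Of the inhibitor list, the 7 rises became 4 without the donor term, and 3, 4 and 4 without donors 1, 2 and 3 in turn.

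Of 12 ligand and latency genes 3 rose and none fell (25% called). INHBA, the subunit of activin A, rose by 0.80 ± 0.18 (adjusted p = 0.0313), LTBP1, which anchors latent TGF-β in the matrix, by 0.60 ± 0.13 (adjusted p = 0.022), and TGFB2 by 0.56 ± 0.14 (adjusted p = 0.0456). INHBA differed between donors, with 11.11, 10.98 and 10.50 without TGF-β3 and 11.43, 11.65 and 11.90 with it. TGFB3, the gene of the added ligand, had 8.43, 8.42 and 8.69 without TGF-β3 and 8.06, 8.37 and 8.04 with it and was not called (-0.36 ± 0.18, adjusted p = 0.316), and TGFB1 differed by 0.02 ± 0.11 (adjusted p = 0.956), below 0 without donor 3 or either of its arrays. LRRC32, which presents latent TGF-β on the cell surface, differed by 1.00 ± 0.26 and was not called, with 6.47, 6.02 and 6.08 without TGF-β3 and 7.68, 7.75 and 6.14 with it: donor 3 hardly moved. Among 13 receptors and coreceptors 2 coreceptors fell and none rose (15.4% called). TGFBR3, betaglycan, had 7.96, 8.74 and 9.31 without TGF-β3 and 6.48, 6.94 and 7.34 with it and fell by 1.75 ± 0.11 (adjusted p = 8.57e-05), from starting levels that differed between donors. ENG, endoglin, fell by 0.48 ± 0.087 (adjusted p = 0.0123). The signalling receptors TGFBR1 (-0.04 ± 0.079) and TGFBR2 (-0.19 ± 0.11) were not called, and neither were the activin and BMP receptors. Among the SMADs that carry the signal, SMAD3 fell by 0.40 ± 0.10 at the edge of the threshold (adjusted p = 0.0499736) and SMAD4 (-0.01 ± 0.074), SMAD1 (0.12 ± 0.13) and SMAD5 (0.00 ± 0.11) were not called. INHBA lost the call without treated donor 2 or 3 or untreated donor 2 or 3 (adjusted p up to 0.132), and LTBP1 without treated donor 1, 2 or 3 or untreated donor 1 or 2 (adjusted p up to 0.105). TGFB2 lost the call without treated donor 1 or 2 or untreated donor 1 or 2 (adjusted p up to 0.17), and ENG without treated donor 1 or 2 or untreated donor 2 (adjusted p up to 0.072). SMAD3 lost the call without each of the 6 arrays in turn (adjusted p up to 0.19). TGFB2, TGFBR3, ENG and SMAD3 were not called without the donor term (adjusted p between 0.0506 and 0.157). Of the ligand list, the 3 rises became 0 to 2 on leaving out 1 array (over 1.5 times apart without treated donor 1 or 2 or untreated donor 1 or 2). Of the receptor list, the 2 falls became 1 to 2 on leaving out 1 array (over 1.5 times apart without treated donor 1 or 2 or untreated donor 2) and 0 without the donor term.

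**Figure D3:**
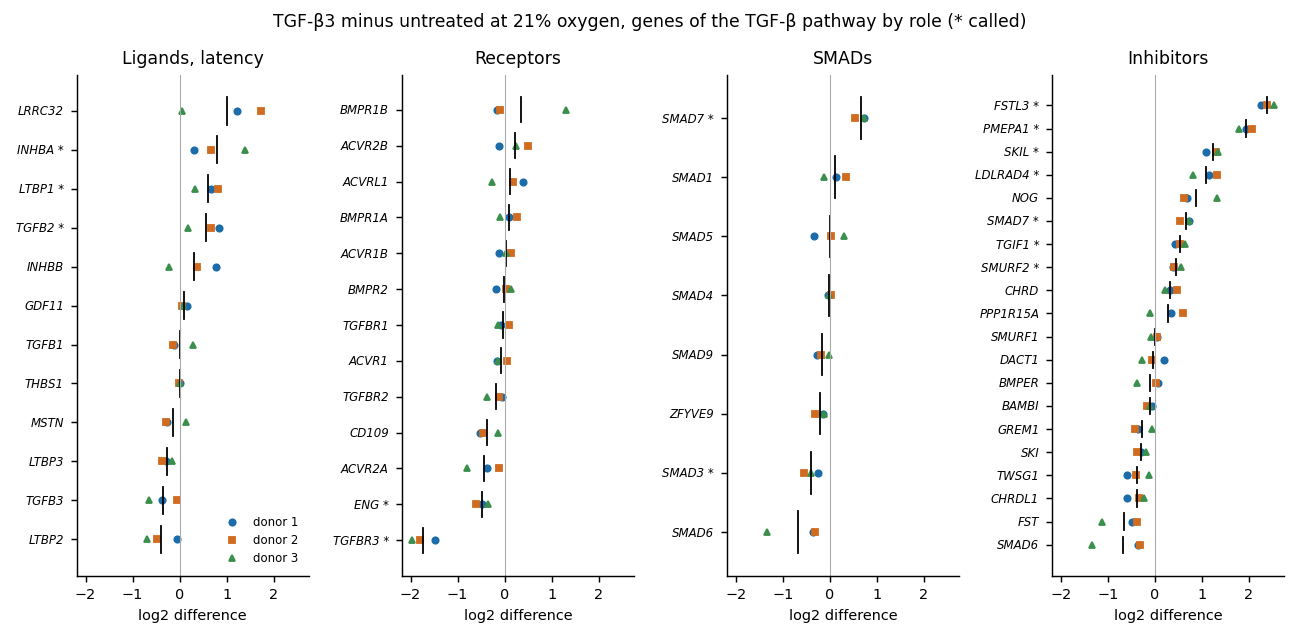
Log2 difference of TGF-β3 minus untreated at 21% oxygen (horizontal axis) for genes of the TGF-β pathway by role, with a symbol per donor and a black bar at the mean of 3 donors. Asterisks mark called genes. FSTL3, PMEPA1, SKIL and LDLRAD4 lie above 0 in each donor, TGFBR3 lies between -1.47 and -1.97, and donor 3 lies apart for SMAD6 and LRRC32.

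Many known targets of TGF-β rose. Of 27 measured members of a target list, 16 rose and 2 fell (66.7% called), with a median of 0.70 and medians of 0.73, 0.67 and 0.73 within donors 1, 2 and 3. POSTN, periostin, a matrix protein of tissue under load, had 11.20, 8.57 and 9.78 without TGF-β3 and 12.50, 12.00 and 12.95 with it and rose by 2.64 ± 0.39 (adjusted p = 0.00492), least in donor 1, whose untreated level was highest. PTHLH, a hormone that holds back chondrocyte maturation, rose by 1.86 ± 0.30, the membrane protease gene ADAM19 by 1.74 ± 0.13, and CDH2, N-cadherin, by 1.21 ± 0.15. SPHK1, which makes sphingosine 1-phosphate, rose by 1.03 ± 0.12 and NOX4, a hydrogen peroxide producing oxidase, by 0.94 ± 0.13. CCN2, a matricellular protein often read as a TGF-β target, rose by 0.37 ± 0.077 (adjusted p = 0.0233) from an already bright signal. TGFBI was not called (0.70 ± 0.24, adjusted p = 0.146). The members that fell were TNC, tenascin C, by 0.67 ± 0.096 (adjusted p = 0.00405), and TIMP1, a metalloproteinase inhibitor, by 0.39 ± 0.075 (adjusted p = 0.0153). TNC had 13.27, 13.33 and 13.33 without TGF-β3 and 12.75, 12.69 and 12.48 with it, and the groups did not overlap. CCN2 lost the call without treated donor 1 or 2 or untreated donor 1, 2 or 3 (adjusted p up to 0.113), and TIMP1 without treated donor 1 or 2 or untreated donor 2 (adjusted p up to 0.0819). POSTN, CDH2, CCN2 and TIMP1 were not called without the donor term (adjusted p between 0.0506 and 0.363). With a whole donor left out, POSTN was not called by limma without donor 2 or 3 (adjusted p = 0.0804 and 0.0904). PTHLH (0.0715 and 0.0942) and NOX4 (0.0747 and 0.0518) were not called without donor 1 or 2. Of the target list, the 2 falls became 1 to 2 on leaving out 1 array (over 1.5 times apart without treated donor 2 or untreated donor 2) and 1 without the donor term. The 16 rises became 11 without the donor term, and 8, 6 and 13 without donors 1, 2 and 3 in turn.

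Among transcription factors of mesenchymal identity and the AP-1 family, 7 of 29 rose and 3 fell (34.5% called). The ZEB repressors of epithelial genes moved apart: ZEB1 rose by 0.81 ± 0.12 (adjusted p = 0.00393) while ZEB2, with 10.77, 10.93 and 10.98 without TGF-β3 and 9.54, 9.69 and 9.96 with it, fell by 1.17 ± 0.10 (adjusted p = 0.000371). SNAI1, another such repressor, rose by 0.95 ± 0.17, and SNAI2 was not called (0.31 ± 0.083). ETS1 rose by 0.83 ± 0.10, MYC by 0.70 ± 0.07, FOS by 1.02 ± 0.21 and JUNB by 0.83 ± 0.16, whereas KLF4 fell by 0.73 ± 0.13 and PRRX1, a regulator of limb mesenchyme, by 0.51 ± 0.097. SNAI1 lost the call without treated donor 2 or untreated donor 2 (adjusted p up to 0.0578), and FOS without treated donor 2 or 3 or untreated donor 2 or 3 (adjusted p up to 0.0921). JUNB lost the call without treated donor 3 or untreated donor 1, 2 or 3 (adjusted p up to 0.071), and KLF4 without treated donor 2 (adjusted p = 0.0528). PRRX1 lost the call without treated donor 1 or 2 or untreated donor 2 or 3 (adjusted p up to 0.0765). FOS and PRRX1 were not called without the donor term (adjusted p between 0.0527 and 0.0657). Of the transcription factor list, the 7 rises became 3 to 6 on leaving out 1 array (over 1.5 times apart without treated donor 2 or 3 or untreated donor 2 or 3), and the 3 falls became 1 to 4 on leaving out 1 array (over 1.5 times apart without treated donor 2).

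Many genes of the contractile cytoskeleton rose. Of 27 measured contractile genes and targets of the factors SRF and YAP, 16 rose (59.3% called), none fell, and 25 lay above 0, with a median of 0.40. CNN1, calponin of smooth muscle, had 11.29, 11.03 and 10.04 without TGF-β3 and 12.64, 12.65 and 11.40 with it and rose by 1.44 ± 0.17 (adjusted p = 0.00137). Donor 3 was lowest in both groups, and the groups did not overlap. ANKRD1, a nuclear target of YAP, rose by 2.10 ± 0.33 (adjusted p = 0.00647) and was also lowest in donor 3 in both groups (6.86, 5.46 and 5.19 without TGF-β3 and 8.96, 7.80 and 7.04 with it). DES, the intermediate filament protein desmin, rose by 2.20 ± 0.39, the matricellular YAP target CCN1 by 1.02 ± 0.16, MYOCD, the coactivator of smooth muscle genes, by 0.84 ± 0.14, SMTN by 0.72 ± 0.12 and TAGLN by 0.55 ± 0.079. MYH11, the smooth muscle myosin heavy chain, was not called (-0.32 ± 0.10), nor were MYL9 (0.29 ± 0.12) and the actin crosslinker FLNA (0.12 ± 0.074). DES lost the call without treated donor 2 or untreated donor 2 (adjusted p up to 0.06). CNN1, ANKRD1, MYOCD and SMTN were not called without the donor term (adjusted p between 0.0514 and 0.14). Of the contractile list, the 16 rises became 6 to 16 on leaving out 1 array (over 1.5 times apart without treated donor 1 or 2 or untreated donor 2 or 3) and 3 without the donor term. They became 1, 2 and 9 without donors 1, 2 and 3 in turn.

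Integrins, the receptors by which cells hold on to matrix, and their adhesion proteins moved both ways, with 6 of 24 integrin and focal adhesion genes up and 5 down (45.8% called, median -0.01). ITGA2, a collagen-binding subunit, had 4.73, 4.60 and 4.74 without TGF-β3 and 6.84, 6.57 and 7.67 with it and rose by 2.34 ± 0.17 (adjusted p = 0.000166). Its untreated arrays lay below the lower quartile of all probe sets (4.94) and were not tested against background. ITGA8, which binds nephronectin and fibronectin, rose by 1.90 ± 0.14 (adjusted p = 0.000165), ITGB3, the β subunit of the vitronectin receptor, by 0.95 ± 0.095, and ITGA5, the fibronectin receptor subunit, by 0.66 ± 0.12. ITGB5, another vitronectin receptor subunit, fell by 1.00 ± 0.19 (adjusted p = 0.0146) and ITGA10, a collagen receptor subunit of chondrocytes, by 0.90 ± 0.19. ITGAV, the partner of ITGB3 and ITGB5, differed by 0.01 ± 0.073 and ITGB1, the partner of ITGA2, ITGA5, ITGA8 and ITGA10, by 0.10 ± 0.07, and neither was called. ITGBL1, a secreted protein that resembles the β subunits, had 9.88, 10.26 and 10.32 without TGF-β3 and 7.73, 7.43 and 6.79 with it and fell by 2.84 ± 0.23 (adjusted p = 0.000256). Among adhesion plaque proteins ZYX (0.51 ± 0.099) and TNS1 (0.71 ± 0.091) rose while PXN (-0.72 ± 0.096) fell. ITGA5 lost the call without treated donor 2 (adjusted p = 0.0528), and ITGB5 without treated donor 1 or 2 or untreated donor 1 or 2 (adjusted p up to 0.0757). ITGA10 and ZYX lost the call without treated donor 1 or 2 or untreated donor 2 or 3 (adjusted p up to 0.102). ITGA5 and ITGA10 were not called without the donor term (adjusted p between 0.0509 and 0.454). Of the integrin list, the 5 falls became 2 to 4 on leaving out 1 array (over 1.5 times apart without treated donor 1 or 2 or untreated donor 1 or 2) and 3 without the donor term.

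Among the small leucine-rich proteoglycans, which sit on collagen fibrils and set their thickness, 6 of 13 measured members fell and none rose (46.2% called), with a median of -0.24. OMD, osteomodulin, had 11.30, 11.25 and 11.46 without TGF-β3 and 9.65, 9.65 and 10.14 with it and fell by 1.52 ± 0.11 (adjusted p = 0.000186). ECM2, a related matrix protein, fell by 1.28 ± 0.085 (adjusted p = 0.000111), ASPN, asporin, by 1.07 ± 0.11 (adjusted p = 0.00085), OGN, osteoglycin, by 0.78 ± 0.071 (adjusted p = 0.00042) and PRELP, which anchors matrix to basement membranes, by 0.60 ± 0.085 (adjusted p = 0.00378). DCN, decorin, which binds collagen and TGF-β itself, had 13.09, 13.25 and 13.36 without TGF-β3 and 11.91, 11.84 and 12.59 with it and fell by 1.12 ± 0.15 (adjusted p = 0.00317), with donor 3 reduced least. Treated and untreated arrays of OMD, ECM2 and DCN did not overlap. BGN, biglycan, was not called (0.05 ± 0.077), and neither were LUM, lumican (-0.24 ± 0.07), and FMOD, fibromodulin (-0.08 ± 0.066). These 6 falls were called without the donor term and without any 1 array. Without donors 1, 2 and 3 the count was 5, 4 and 5.

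Matrix glycoproteins and elastic fibre genes moved both ways, with 5 of 33 up and 9 down (42.4% called, median -0.01). DPT, dermatopontin, which binds decorin and collagen, had 8.99, 7.91 and 7.60 without TGF-β3 and 11.40, 11.36 and 11.62 with it and rose by 3.29 ± 0.39 (adjusted p = 0.00142), to nearly equal levels in the 3 donors. MATN2, an adaptor of matrix filaments, rose by 1.89 ± 0.13 (adjusted p = 0.000111) and FBLN5, needed for elastic fibre assembly, by 1.26 ± 0.15 (adjusted p = 0.0018). Elastin itself, ELN, fell by 1.44 ± 0.19 (adjusted p = 0.00238), and MFAP2, a component of the microfibrils around it, rose by 0.98 ± 0.14. SVEP1, a large adhesion protein, fell by 2.30 ± 0.25 (adjusted p = 0.000994) and EFEMP1, fibulin 3, by 2.09 ± 0.32 (adjusted p = 0.00556). FN1, fibronectin, was not called (0.18 ± 0.066, adjusted p = 0.158). Of 30 collagen genes, 3 rose and 2 fell (16.7% called). COL8A1 rose by 0.94 ± 0.15, COL8A2 by 0.91 ± 0.20 and COL12A1 by 0.43 ± 0.077, while COL14A1 (-0.96 ± 0.20) and COL3A1 (-0.78 ± 0.15), chains of fibril-associated and fibrillar collagen, fell. COL1A1 had 13.41, 13.40 and 13.42 without TGF-β3 and 13.49, 13.45 and 13.27 with it and was not called (0.00 ± 0.075, adjusted p = 0.991), near the top of the signal range. COL8A2 and COL12A1 lost the call without treated donor 1 or 2 or untreated donor 1 or 2 (adjusted p up to 0.121), and COL14A1 without treated donor 1, 2 or 3 or untreated donor 2 or 3 (adjusted p up to 0.101). COL3A1 lost the call without treated donor 2 or 3 (adjusted p up to 0.069). ELN, MFAP2, EFEMP1 and COL8A2 were not called without the donor term (adjusted p between 0.0591 and 0.109). Of the glycoprotein list, the 5 rises became 3 without the donor term, and the 9 falls became 4 without the donor term. Of the collagen list, the 3 rises became 1 to 3 on leaving out 1 array (over 1.5 times apart without treated donor 1 or 2 or untreated donor 1 or 2), and the 2 falls became 0 to 2 on leaving out 1 array (over 1.5 times apart without treated donor 1, 2 or 3 or untreated donor 2 or 3).

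Among collagen-modifying enzymes 4 of 24 rose and 1 fell (20.8% called). PLOD2, which hydroxylates lysines of collagen telopeptides for crosslinking, had 11.45, 11.39 and 11.21 without TGF-β3 and 12.31, 12.52 and 12.26 with it and rose by 1.01 ± 0.082 (adjusted p = 0.00025). PCOLCE2, an enhancer of procollagen cleavage, fell by 1.09 ± 0.14 (adjusted p = 0.0022). The lysyl oxidase genes LOXL4 (1.25 ± 0.31) and LOXL2 (0.50 ± 0.093) rose. Of 27 genes of glycosaminoglycan synthesis, 3 rose and 2 fell (18.5% called), among them EXT1 (0.76 ± 0.091) and EXT2 (-0.33 ± 0.073), the partners of the heparan sulfate polymerase, which moved in opposite directions. CHSY3, a chondroitin polymerase, rose by 0.83 ± 0.085 (adjusted p = 0.00076). Of 30 matrix proteases and inhibitors 3 rose and 5 fell (26.7% called). PLAUR, the urokinase receptor, rose by 1.64 ± 0.18 (adjusted p = 0.00117) and ADAMTS6 by 1.25 ± 0.19, while SERPINE2, an inhibitor of thrombin and urokinase, had 12.48, 12.83 and 12.70 without TGF-β3 and 11.17, 11.22 and 11.25 with it and fell by 1.46 ± 0.10 (adjusted p = 0.00013). MMP19 fell by 1.40 ± 0.11 (adjusted p = 0.000186) and CTSK, cathepsin K, by 0.56 ± 0.078. LOXL4 and EXT2 lost the call without each of the 6 arrays in turn (adjusted p up to 0.162), and LOXL2 without treated donor 1 or 2 or untreated donor 1 or 2 (adjusted p up to 0.0692). PCOLCE2, LOXL4, LOXL2, EXT2 and CTSK were not called without the donor term (adjusted p between 0.0545 and 0.322). Of the collagen modification list, the 4 rises became 1 to 2 on leaving out 1 array (over 1.5 times apart without each of the 6 arrays in turn) and 1 without the donor term. Of the glycosaminoglycan list, the 2 falls became 1 on leaving out 1 array (over 1.5 times apart without each of the 6 arrays in turn) and 1 without the donor term. Of the protease list, the 5 falls became 3 to 5 on leaving out 1 array (over 1.5 times apart without treated donor 1 or 2 or untreated donor 2) and 3 without the donor term.

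Of 29 cytokine, chemokine and receptor genes 3 rose and 6 fell (31% called, median -0.07), and the 3 that rose were the IL6 family ligands IL6, LIF and IL11. IL6 had 9.40, 9.43 and 9.42 without TGF-β3 and 11.14, 10.93 and 11.99 with it and rose by 1.94 ± 0.26 (adjusted p = 0.00283), from an equal start in the 3 donors to the highest level in donor 3. LIF rose by 1.54 ± 0.093 (adjusted p = 8.14e-05) and IL11 by 1.21 ± 0.12 (adjusted p = 0.000591). Their shared receptor subunit IL6ST fell by 0.65 ± 0.077 (adjusted p = 0.00151). IL1R1, the interleukin 1 receptor, had 10.80, 10.73 and 10.83 without TGF-β3 and 9.66, 9.58 and 9.56 with it and fell by 1.19 ± 0.071 (adjusted p = 8.14e-05), with the arrays of each group in a narrow band. IL18, an inflammatory cytokine, fell by 1.53 ± 0.13 (adjusted p = 0.00035). CXCL5, a chemokine that draws neutrophils, fell by 1.81 ± 0.19 (adjusted p = 0.000866) and IL34, a ligand of the macrophage receptor CSF1R, by 0.73 ± 0.07. CXCL12, the chemokine that keeps blood stem cells in marrow, differed by -1.25 ± 0.32 and was not called (adjusted p = 0.0547), with 11.90, 11.72 and 11.63 without TGF-β3 and 10.25, 9.95 and 11.31 with it.

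Of 25 genes of fibroblast growth factor (FGF) signalling 3 rose, all ligands, and 1 fell (16% called). FGF18, which acts on chondrocytes, had 6.43, 6.68 and 6.76 without TGF-β3 and 9.40, 9.26 and 9.08 with it and rose by 2.62 ± 0.21 (adjusted p = 0.000256). FGF1 rose by 1.27 ± 0.16 (adjusted p = 0.00205) and FGF5 by 0.81 ± 0.11 (adjusted p = 0.00294). SPRY2, an inhibitor induced by FGF signals, fell by 0.76 ± 0.097 (adjusted p = 0.00222), and its relative SPRY4 was not called (-0.75 ± 0.23). Of 20 genes of the insulin-like growth factor (IGF) axis 5 rose and 4 fell (45% called). Of the IGF list, the 5 rises became 1 to 2 on leaving out 1 array (over 1.5 times apart without each of the 6 arrays in turn) and 1 without the donor term, and the 4 falls became 1 to 3 on leaving out 1 array (over 1.5 times apart without treated donor 1 or 2 or untreated donor 1, 2 or 3). The IGF-binding proteins were split, with IGFBP2 (1.61 ± 0.19) and IGFBP7 (0.45 ± 0.098) up and IGFBP3 (-1.58 ± 0.31), IGFBP5 (-1.52 ± 0.28) and IGFBP6 (-0.70 ± 0.11) down. IGFBP2 had 10.07, 9.90 and 9.40 without TGF-β3 and 11.94, 11.91 and 10.35 with it, with a smaller rise in donor 3. IGF1 (-0.04 ± 0.081) and IGF2 (-0.06 ± 0.095) were not called. IGFBP7 and IGFBP5 lost the call without treated donor 1 or 2 or untreated donor 1, 2 or 3 (adjusted p up to 0.122), and IGFBP3 without treated donor 2 or untreated donor 1, 2 or 3 (adjusted p up to 0.0821). FGF5, SPRY2, IGFBP2 and IGFBP7 were not called without the donor term (adjusted p between 0.142 and 0.399).

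Of 35 semaphorin, plexin, ephrin, netrin and related genes 12 fell and 2 rose (40% called), with a median of -0.26 and medians of -0.28, -0.29 and -0.36 within donors 1, 2 and 3. Secreted semaphorins of class 3, which repel growing axons and vessels, made up 5 of the 12: SEMA3C had 12.36, 12.51 and 12.57 without TGF-β3 and 11.28, 11.22 and 11.32 with it and fell by 1.21 ± 0.078 (adjusted p = 9.78e-05), SEMA3A fell by 1.51 ± 0.12 (adjusted p = 0.000229), SEMA3E by 1.61 ± 0.26, SEMA3F by 0.74 ± 0.10 and SEMA3B by 0.49 ± 0.11. NRP1, neuropilin 1, is the coreceptor shared by SEMA3A and vascular endothelial growth factor (VEGF). It is counted in the PDGF and VEGF list of the next paragraph and not among these 12. NRP1 had 10.65, 10.21 and 10.43 without TGF-β3 and 8.53, 8.20 and 7.84 with it and fell by 2.24 ± 0.15 (adjusted p = 0.000128). Its paralog NRP2 was not called (-0.03 ± 0.083). UNC5C, a netrin receptor, fell by 1.19 ± 0.081 (adjusted p = 0.000128), EFNB2, a membrane ephrin, by 1.08 ± 0.13 and NTN4, a netrin of basement membranes, by 0.82 ± 0.085. EPHB2, an ephrin receptor, rose by 1.19 ± 0.19 (adjusted p = 0.00649). SEMA3B lost the call without each of the 6 arrays in turn (adjusted p up to 0.132). SEMA3E, SEMA3B, UNC5C, EFNB2 and EPHB2 were not called without the donor term (adjusted p between 0.0706 and 0.263). Of the guidance list, the 2 rises became 1 to 2 on leaving out 1 array (over 1.5 times apart without treated donor 1 or 2 or untreated donor 1, 2 or 3) and 1 without the donor term, and the 12 falls became 7 to 10 on leaving out 1 array (over 1.5 times apart without treated donor 2 or untreated donor 2) and 6 without the donor term. The 12 falls became 7, 4 and 9 without donors 1, 2 and 3 in turn.

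Of 22 ligands and receptors of the platelet-derived growth factor (PDGF), VEGF and angiopoietin families 7 fell and 3 rose (45.5% called). NRP1, described above, was among the 7. ANGPT2, a vessel-destabilising angiopoietin, had 9.37, 8.31 and 9.46 without TGF-β3 and 6.20, 6.11 and 6.48 with it and fell by 2.78 ± 0.16 (adjusted p = 8.14e-05), while ANGPT1 was not called (0.08 ± 0.22). Both PDGF receptor genes fell, PDGFRA by 0.84 ± 0.18 and PDGFRB by 0.76 ± 0.12. Their ligands moved apart, with PDGFA up by 0.58 ± 0.13 and PDGFC, from 10.30, 10.49 and 10.51 to 9.31, 9.50 and 9.73, down by 0.92 ± 0.12 (adjusted p = 0.00196). VEGFA rose by 0.50 ± 0.092 and its receptor FLT1 by 0.85 ± 0.18. PDGFRA lost the call without treated donor 1 or 2 or untreated donor 1 or 3 (adjusted p up to 0.124), and PDGFA without treated donor 1 or 2 or untreated donor 1, 2 or 3 (adjusted p up to 0.135). VEGFA lost the call without treated donor 2 or 3 or untreated donor 3 (adjusted p up to 0.0684), and FLT1 without each of the 6 arrays in turn (adjusted p up to 0.101). Of the PDGF and VEGF list, the 3 rises became 0 to 1 on leaving out 1 array (over 1.5 times apart without each of the 6 arrays in turn), and the 7 falls became 4 to 7 on leaving out 1 array (over 1.5 times apart without treated donor 1 or 2).

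In the Wnt pathway 6 of 36 genes rose and 3 fell (25% called). The secreted antagonists split: DKK1 had 7.50, 6.16 and 7.47 without TGF-β3 and 9.06, 8.70 and 10.65 with it and rose by 2.43 ± 0.43 (adjusted p = 0.0109), SFRP1 rose by 1.23 ± 0.27, and DKK3 fell by 1.02 ± 0.13 (adjusted p = 0.00205). DKK1 rose least in donor 1, and its highest untreated array (7.50) was below its lowest treated array (8.70). NKD1, an inhibitor induced by Wnt signals, rose by 0.91 ± 0.18, the receptor gene FZD2 by 0.63 ± 0.12 and the nuclear factor TCF7 by 0.56 ± 0.11, while AXIN2 was not called (0.08 ± 0.085). Among 16 Notch genes 2 rose and 1 fell (18.8% called). MFNG, a glycosyltransferase that tunes Notch receptors, had 6.07, 5.88 and 5.88 without TGF-β3 and 7.35, 7.74 and 7.43 with it and rose by 1.56 ± 0.20 (adjusted p = 0.00229), and the ligand gene JAG1 fell by 1.03 ± 0.14 (adjusted p = 0.00288). Of 10 Hedgehog genes 3 fell and 1 rose (40% called). Those that fell were the coreceptors GAS1 (-0.97 ± 0.15) and CDON (-0.72 ± 0.089) and the transcription factor GLI3 (-0.58 ± 0.083), and PTCH1, the receptor and pathway target, rose by 0.61 ± 0.098 (adjusted p = 0.00684). The 3 Hedgehog falls became 0, 0 and 3 without donors 1, 2 and 3 in turn. Of 17 genes of the BMP response 4 fell and none rose (23.5% called). BMP4, a ligand, had 11.14, 11.06 and 11.51 without TGF-β3 and 10.11, 10.05 and 10.56 with it and fell by 1.00 ± 0.083 (adjusted p = 0.00027), the same step in each donor, and BMP2 fell by 1.03 ± 0.24 (adjusted p = 0.0329). The BMP target ID2 (-0.70 ± 0.17) and the homeobox gene DLX3 (-0.93 ± 0.21) fell, while ID1 (0.06 ± 0.24) and ID3 (0.21 ± 0.15) were not called. DKK1 lost the call without treated donor 2 or untreated donor 3 (adjusted p up to 0.0604), and SFRP1, BMP2 and DLX3 without each of the 6 arrays in turn (adjusted p up to 0.137). NKD1 lost the call without treated donor 1 or 2 or untreated donor 1 or 2 (adjusted p up to 0.0917), and FZD2 without treated donor 1 or 3 or untreated donor 2 or 3 (adjusted p up to 0.0685). TCF7 lost the call without treated donor 2 or 3 or untreated donor 1 or 2 (adjusted p up to 0.0645), and ID2 without treated donor 1, 2 or 3 or untreated donor 2 or 3 (adjusted p up to 0.168). DKK1, SFRP1, DKK3, BMP2, ID2 and DLX3 were not called without the donor term (adjusted p between 0.0769 and 0.226). Of the Wnt list, the 6 rises became 1 to 4 on leaving out 1 array (over 1.5 times apart without treated donor 1 or 2 or untreated donor 1, 2 or 3) and 3 without the donor term, and the 3 falls became 1 to 3 on leaving out 1 array (over 1.5 times apart without treated donor 2 or 3 or untreated donor 2 or 3) and 0 without the donor term. Of the Notch list, the 2 rises became 1 on leaving out 1 array (over 1.5 times apart without each of the 6 arrays in turn) and 1 without the donor term. Of the BMP response list, the 4 falls became 1 to 2 on leaving out 1 array (over 1.5 times apart without each of the 6 arrays in turn) and 1 without the donor term.

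Of 19 measured cartilage genes 1 rose and 4 fell (26.3% called, against 6.35% of all probe sets), with a median of 0.02. ACAN, aggrecan, the main proteoglycan of cartilage, had 9.31, 10.23 and 11.14 without TGF-β3 and 7.99, 8.86 and 10.02 with it and fell by 1.27 ± 0.18 (adjusted p = 0.00327). Donors differed more than treatments here: each donor fell by a similar step, but treated donor 3 lay above untreated donor 1, and the gene was not called without the donor term. HAPLN1, which links aggrecan to hyaluronan, showed the same order of donors (10.04, 10.22 and 11.27 without TGF-β3 and 8.17, 8.57 and 10.14 with it) and fell by 1.55 ± 0.18 (adjusted p = 0.00146). PRG4, lubricin, fell by 1.79 ± 0.34 (adjusted p = 0.0144) and SOX6, a partner of SOX9, by 0.77 ± 0.14 (adjusted p = 0.0126). SOX9 itself, with 8.37, 8.58 and 8.69 without TGF-β3 and 8.51, 8.57 and 8.44 with it, was not called (-0.04 ± 0.12, adjusted p = 0.896), with a difference above 0 without donor 3 or either of its arrays. COL2A1, the main cartilage collagen, had 9.36, 8.73 and 8.49 without TGF-β3 and 10.49, 9.78 and 8.55 with it and was not called (0.74 ± 0.28, adjusted p = 0.176), with differences near 1 in donors 1 and 2 and near 0 in donor 3. WWP2, a ubiquitin ligase whose gene hosts a cartilage microRNA, was the member that rose, by 0.53 ± 0.089 (adjusted p = 0.00804). Of 17 genes of hypertrophy and bone 2 fell (11.8% called, against 6.35% of all probe sets), BMP2 and the transcription factor gene MEF2C (-0.98 ± 0.14), and none rose. The share called is near that of named genes at large. RUNX2 (0.11 ± 0.094) and SP7 (-0.69 ± 0.19), the regulators of bone formation, were not called. PRG4 lost the call without treated donor 2 or untreated donor 2 or 3 (adjusted p up to 0.0752), and SOX6 without treated donor 1 or 2 (adjusted p up to 0.0598). ACAN, HAPLN1, PRG4, SOX6 and MEF2C were not called without the donor term (adjusted p between 0.059 and 0.422). Of the cartilage list, the 4 falls became 2 to 4 on leaving out 1 array (over 1.5 times apart without treated donor 2) and 0 without the donor term. Of the hypertrophy and bone list, the 2 falls became 1 on leaving out 1 array (over 1.5 times apart without each of the 6 arrays in turn) and 0 without the donor term.

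Of 23 fat-cell genes 3 fell and 1 rose (17.4% called, against 6.35% of all probe sets), with a median of -0.01. Besides FABP4, its paralog FABP5 fell by 1.05 ± 0.21 (adjusted p = 0.0175) and PLIN2, a coat protein of lipid droplets, by 0.37 ± 0.091. The factors that drive fat-cell formation were not called, PPARG at -0.46 ± 0.20 and CEBPA at 0.13 ± 0.091. G0S2, an inhibitor of triglyceride breakdown, had 6.76, 7.11 and 7.78 without TGF-β3 and 9.13, 10.07 and 10.10 with it and rose by 2.55 ± 0.22 (adjusted p = 0.000329), with no overlap. Of 21 mesenchymal stromal markers 8 fell and none rose (38.1% called), with a median of -0.31 (-0.31, -0.42 and -0.32 within donors 1, 2 and 3). NT5E, the surface enzyme CD73, had 12.07, 12.63 and 12.54 without TGF-β3 and 10.78, 11.41 and 11.98 with it and fell by 1.02 ± 0.15 (adjusted p = 0.005), THY1, the surface protein CD90, by 0.73 ± 0.12 (adjusted p = 0.00652) and CD248, endosialin, by 0.94 ± 0.15 (adjusted p = 0.00566). CD44 (-0.23 ± 0.08), ALCAM (-0.18 ± 0.093) and LEPR (0.01 ± 0.10) were not called. Of 17 tendon and fibroblast genes 3 rose and 3 fell (35.3% called). FAP, a surface protease of activated fibroblasts, rose by 1.25 ± 0.19 (adjusted p = 0.005) and SCX, a regulator of tendon, by 0.62 ± 0.11, and the homeobox gene MEOX2 fell by 1.38 ± 0.15 (adjusted p = 0.000937). FABP5 lost the call without treated donor 2 or untreated donor 1 or 2 (adjusted p up to 0.0883), and PLIN2 without each of the 6 arrays in turn (adjusted p up to 0.175). SCX lost the call without untreated donor 2 (adjusted p = 0.0529). FABP5, PLIN2, NT5E, THY1, CD248, FAP, SCX and MEOX2 were not called without the donor term (adjusted p between 0.0603 and 0.367). Of the fat-cell list, the 3 falls became 1 to 2 on leaving out 1 array (over 1.5 times apart without treated donor 2 or untreated donor 1 or 2) and 1 without the donor term. Of the stromal list, the 8 falls became 4 to 8 on leaving out 1 array (over 1.5 times apart without treated donor 2 or untreated donor 2) and 3 without the donor term. They became 1, 0 and 7 without donors 1, 2 and 3 in turn. Of the tendon list, the 3 rises became 1 to 2 on leaving out 1 array (over 1.5 times apart without untreated donor 2) and 0 without the donor term, and the 3 falls became 0 without the donor term.

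**Figure D4:**
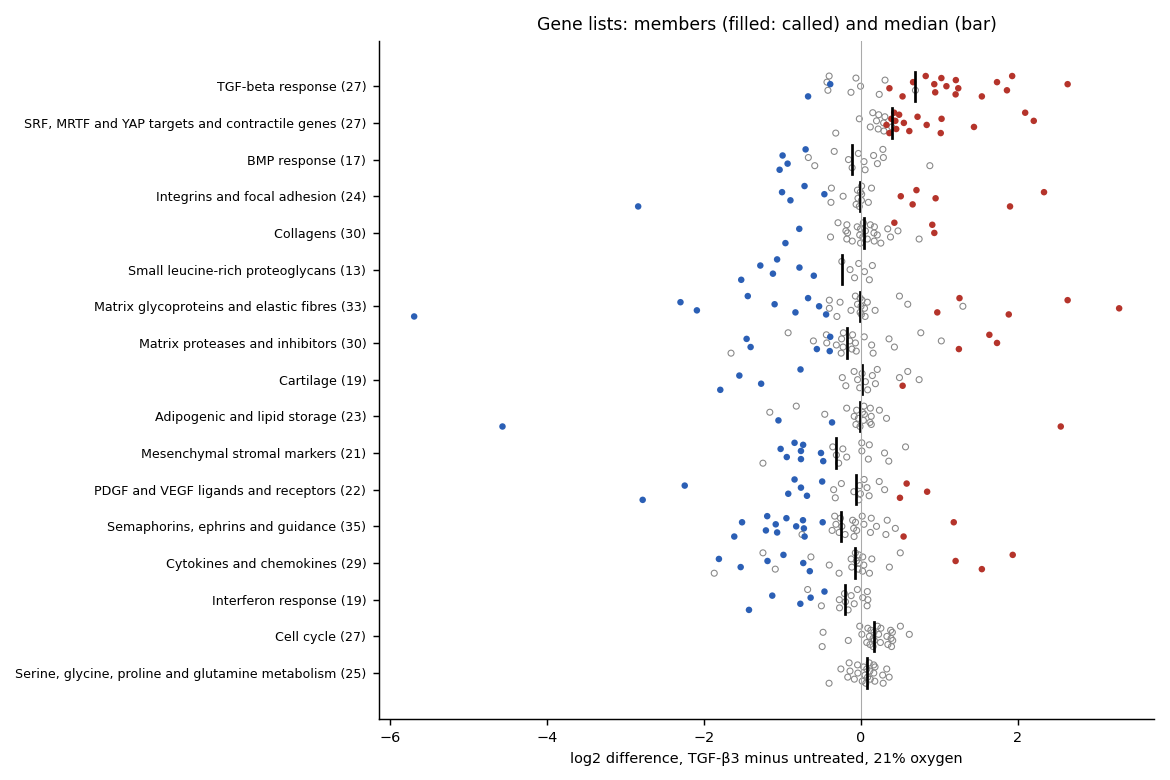
Log2 difference of TGF-β3 minus untreated at 21% oxygen (horizontal axis) for the measured members of 17 gene lists, whose number is in brackets. Filled points are called members (red higher, blue lower), open points are not called, and a black bar marks the median. Contractile genes lie almost wholly above 0, the called proteoglycans, guidance, stromal and interferon genes lie mostly or wholly below it, and integrins and matrix glycoproteins lie on both sides.

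Of 20 retinoid genes, ALDH1A1 among them, 2 rose and 1 fell (15% called, against 6.35% of all probe sets), with a median of 0.04. ALDH1A2 (-0.05 ± 0.069) and ALDH1A3 (0.06 ± 0.15), enzymes with the same activity, were not called. RBP4, the carrier of retinol in plasma, rose by 0.62 ± 0.10 (adjusted p = 0.00707), and RARG, the retinoic acid receptor of cartilage and skin, had 9.03, 9.19 and 9.15 without TGF-β3 and 8.19, 8.21 and 8.33 with it and fell by 0.88 ± 0.09 (adjusted p = 0.000763). The retinoic acid-degrading CYP26A1 (-0.04 ± 0.14) and CYP26B1 (0.15 ± 0.15) and the receptor gene RARA (-0.42 ± 0.11) were not called. Of 18 prostaglandin genes 2 rose and 3 fell (27.8% called). PTGER3, a receptor of prostaglandin E2, had 6.83, 6.66 and 5.86 without TGF-β3 and 9.79, 9.26 and 9.72 with it and rose by 3.14 ± 0.34 (adjusted p = 0.000971), while PTGER4, another receptor of the same ligand, fell by 0.71 ± 0.14 (adjusted p = 0.0199) and PTGFR, the receptor of prostaglandin F2α, by 2.63 ± 0.54 (adjusted p = 0.021). The treated mean of PTGFR (4.75) lay below the lower quartile of all probe sets (4.94) and was not tested against background. AKR1B1, an aldose reductase that also makes prostaglandin F2α, rose by 1.07 ± 0.11 (adjusted p = 0.000627), PTGIS, the prostacyclin synthase, fell by 0.79 ± 0.11 (adjusted p = 0.00399), and the cyclooxygenase genes PTGS1 (0.03 ± 0.099) and PTGS2 (0.05 ± 0.30) were not called. CYP1B1, which oxidises oestrogens and aromatic compounds, had 7.04, 8.45 and 9.84 without TGF-β3 and 5.73, 5.48 and 5.81 with it and fell by 2.77 ± 0.48 (adjusted p = 0.00953). Its untreated level differed between donors by nearly 3 on the log2 scale while the treated levels were close together. AHR, the receptor that induces it, fell by 1.03 ± 0.17 (adjusted p = 0.00793), and TIPARP, another target of that receptor, rose by 0.63 ± 0.10 (adjusted p = 0.0066). PTGER4 and PTGFR lost the call without treated donor 1 or 2 or untreated donor 1, 2 or 3 (adjusted p up to 0.0993), and CYP1B1 without untreated donor 2 (adjusted p = 0.0536). PTGER4, PTGFR, AHR and TIPARP were not called without the donor term (adjusted p between 0.0624 and 0.294). Of the prostaglandin list, the 3 falls became 1 to 3 on leaving out 1 array (over 1.5 times apart without treated donor 1 or 2 or untreated donor 1, 2 or 3) and 1 without the donor term.

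Of 19 interferon response genes 5 fell and none rose (26.3% called, against 3.41% of all probe sets that fell, median -0.21). MX1, an antiviral GTPase, fell by 1.42 ± 0.29 (adjusted p = 0.0209), with 5.81, 6.81 and 7.53 without TGF-β3 and 5.40, 5.30 and 5.18 with it: donor 1 started lowest and fell least. RIGI, a sensor of viral RNA, fell by 0.64 ± 0.073 (adjusted p = 0.00131). Of 19 complement genes 3 fell and none rose (15.8% called), MASP1 (-1.99 ± 0.29), a protease of the lectin pathway, CD55 (-1.48 ± 0.27), which protects cells from complement, and C2 (-1.01 ± 0.14). MX1 lost the call without treated donor 2 or 3 or untreated donor 2 or 3 (adjusted p up to 0.0902), and CD55 without untreated donor 2 or 3 (adjusted p up to 0.0596). MASP1 was not called without the donor term (adjusted p = 0.151). Of the interferon list, the 5 falls became 1 to 5 on leaving out 1 array (over 1.5 times apart without treated donor 1, 2 or 3 or untreated donor 2 or 3) and 2 without the donor term. They became 3, 0 and 1 without donors 1, 2 and 3 in turn.

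In glucose metabolism 5 of 22 genes rose and 1 fell (27.3% called, median 0.19), and those with the largest rises were transporters. SLC2A1, the glucose transporter GLUT1, had 9.22, 9.53 and 9.16 without TGF-β3 and 10.36, 10.81 and 10.92 with it and rose by 1.39 ± 0.17 (adjusted p = 0.00161). SLC2A3, another glucose transporter, rose by 1.20 ± 0.24 and SLC16A1, a lactate and pyruvate transporter, by 0.68 ± 0.072 (adjusted p = 0.00093). GAPDH (0.00 ± 0.074), LDHA (0.18 ± 0.11) and PKM (-0.12 ± 0.064) were not called. Of 25 genes of serine, glycine, proline and glutamine metabolism none was called by limma with or without the donor term. The unadjusted p was under 0.05 for 3 of them with it and 2 without it. The donors did not move alike here, with medians of 0.23, 0.18 and -0.24 in donors 1, 2 and 3. Without donor 3, 2 of these genes rose, and 1 rose with dim probe sets filtered out. Of 27 cell cycle genes none was called by limma with or without the donor term, and 23 lay above 0. The unadjusted p was under 0.05 for 10 of them with it and 6 without it. Their median of 0.17 differed between donors (-0.03, 0.11 and 0.50 in donors 1, 2 and 3). With dim probe sets filtered out 4 rose and 1 fell. Leaving out 1 array gave up to 3 rises and up to 1 fall. Among inhibitors of growth 3 of 19 rose and 4 fell (36.8% called). GADD45B, a stress-induced TGF-β target, rose by 1.64 ± 0.19 (adjusted p = 0.00146), CDKN1B, the cyclin-dependent kinase inhibitor p27, by 0.65 ± 0.13, and GAS2, a cytoskeletal protein of arrested cells, by 1.21 ± 0.20 (adjusted p = 0.00722), while CDKN1A, the inhibitor p21, fell by 0.67 ± 0.15 and RB1 by 0.54 ± 0.084. CDKN2B, an inhibitor known as a TGF-β target in epithelial cells, was not called (-0.43 ± 0.25). SLC2A3 lost the call without treated donor 2 or 3 or untreated donor 2 (adjusted p up to 0.0935), and CDKN1B without treated donor 1 or 2 or untreated donor 1 or 2 (adjusted p up to 0.0828). CDKN1A lost the call without each of the 6 arrays in turn (adjusted p up to 0.142). SLC2A3, CDKN1B, GAS2, CDKN1A and RB1 were not called without the donor term (adjusted p between 0.0621 and 0.378). Of the glucose list, the 5 rises became 2 to 7 on leaving out 1 array (over 1.5 times apart without treated donor 2 or 3 or untreated donor 1, 2 or 3) and 2 without the donor term, and the 1 fall became 0 to 1 on leaving out 1 array (over 1.5 times apart without treated donor 1 or untreated donor 2 or 3) and 0 without the donor term. Of the growth inhibitor list, the 3 rises became 1 without the donor term, and the 4 falls became 1 without the donor term.

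The 3 donors shared part of the response and differed in single genes and in some gene lists. The target list had medians of 0.73, 0.67 and 0.73 in donors 1, 2 and 3, and the inhibitor list 0.26, 0.23 and -0.07. Across all 26773 probe sets the differences of donors 1 and 2 correlated with r = 0.52, those of donors 2 and 3 with r = 0.50 and those of donors 1 and 3 with r = 0.36. These are descriptions across probe sets, which are not independent, and most probe sets did not respond. Differences of at least 2-fold were seen for 547, 594 and 696 probe sets in donors 1, 2 and 3. The genes whose difference set a donor farthest from the mean of the others were taken from those brighter than the median of all probe sets, and 5 of them follow. MGP, an inhibitor of calcification, had 8.57, 9.17 and 10.69 without TGF-β3 and 9.49, 9.58 and 8.84 with it, so that donor 3 differed in direction from donors 1 and 2 (differences of 0.92, 0.41 and -1.85). At 2% oxygen its differences were -0.02, 0.50 and -1.32. PTPN22, a phosphatase of immune cells, differed by -2.50, -2.87 and 0.45 in donors 1, 2 and 3 at 21% and by -1.94, -2.49 and -0.22 at 2%, far below 0 in donors 1 and 2 in both settings. CXCL14, a chemokine, differed by -0.66, -1.38 and -3.56 at 21% and by -2.36, -1.77 and -5.22 at 2%, lowest in donor 3 each time. GPR75, an orphan receptor, differed by 0.65, 1.80 and 0.05 and 0.36, 2.31 and -0.04, highest in donor 2 each time. The arrays at 2% are other cultures of the same donors. The major histocompatibility gene BOLA-DQB1, which varies between animals and has close copies, differed by -0.53, 1.60 and 0.45 at 21%. At 2% it differed by 0.54, 1.56 and 0.33, so that donor 1 changed sign and donor 2 was again highest. None of these 5 genes was called at 21%, and CXCL14 was called at 2% (adjusted p = 0.0204).

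The response was set beside that at 2% oxygen, which was measured on the other 6 arrays. No array is shared, but the donors are the same and the fit shares its estimates of donor levels and spread. At 2% oxygen 1869 probe sets were called (6.98%), 870 higher (3.25%) and 999 lower (3.73%). Of the 789 probe sets that rose at 21%, 769 had a difference above 0 at 2% and 532 rose there too, 67.4% of those at 21% and 61.1% of those at 2%. Of the 912 that fell, 894 were below 0 at 2% and 670 fell there too, 73.5% and 67.1%. The probe sets that rose had a median difference of 0.61 at 21% and 0.53 at 2%, and those that fell -0.59 and -0.56. These probe sets were picked at 21%, so the medians are not an even comparison. The difference between the responses was tested for every probe set. None was called by limma with the donor term (smallest adjusted p = 0.12) or without it (smallest adjusted p = 0.188). The unadjusted p was under 0.05 for 1157 probe sets with the donor term and 787 without it. With no difference in any probe set, about 1339 would be expected. The median standard error of that difference was 0.15 on the log2 scale, which limits the size of difference that could be called. Among the genes above, UNC5C differed by -1.19 ± 0.081 at 21% and -1.86 at 2%, and TGFB2 by 0.56 at 21% and 1.24 at 2%, with adjusted p-values of the difference of 0.999 and 0.999. ALDH1A1, PADI4, ABI3BP and FABP4 had differences of 5.45, 4.83, -5.60 and -4.36 at 2%. Of the 1701 probe sets called at 21%, 3 were called in the opposite direction at 2%, all of them unnamed here.

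**Figure D5:**
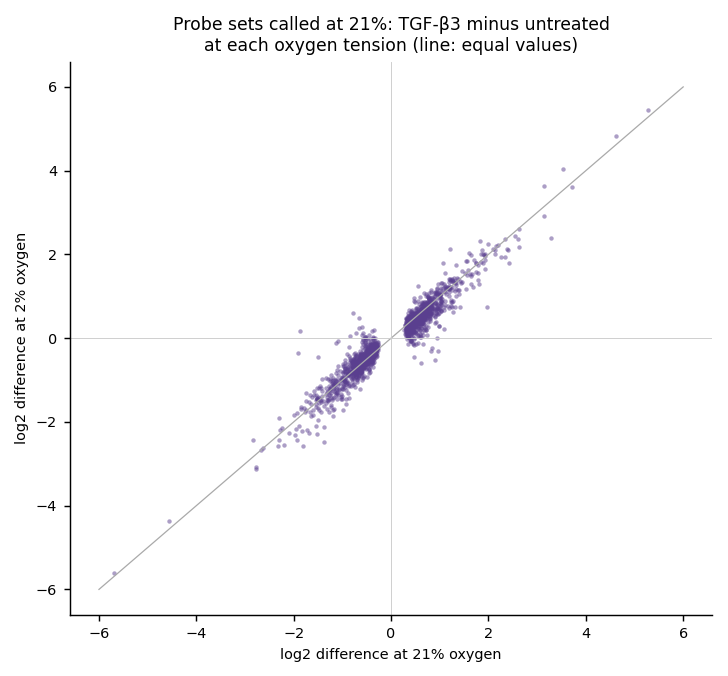
Log2 difference of TGF-β3 minus untreated at 21% oxygen (horizontal axis) and at 2% oxygen (vertical axis) for the 1701 probe sets called at 21%, with a line of equal values. The points follow the line over the whole range, from ABI3BP at -5.69 and -5.60 to ALDH1A1 at 5.27 and 5.45, and the gap around 0 is set by the threshold for a call at 21%.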

How the data were processed

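RNA of 12 cultures (4 conditions, 3 donors) was measured on Affymetrix bovine arrays. The deposited values are log2 signals of 26773 probe sets. The authors normalised them by RMA, and Partek 6.6 is named too, per the submitters' processing notes. The log2 scale was read from the values, and no source used here gives the authors' filters, library files or handling of donors. Of the probe sets, 18550 carry 1 gene symbol in the platform annotation, 595 several and 7628 none. For 412 symbols with several probe sets the brightest was kept.

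No further normalisation or filter was applied. The test was that of limma (version 3.58.1, under R version 4.3.3, by lmFit and eBayes, with 4 groups and donor as terms, 6 residual degrees of freedom), with Benjamini-Hochberg adjustment over all probe sets and a threshold of 0.05. Donor numbers in the titles pair cultures of the same animal. Deviations from the group means correlated between 0.177 and 0.602 for same-donor arrays and between -0.44 and 0.10 for different donors. On simulated data with 26773 probe sets, the test for TGF-β3 at 21% recovered 84 of 100 changes of 1 and 98 of 100 changes of 2 on the log2 scale, with 12 false calls. The simulated arrays had independent normal noise and the same change in every donor, which is the form the test assumes. Donors that respond differently were not simulated, so the 12 false calls do not measure the errors among the real calls.

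The comparison, the genes and the 47 gene lists (896 genes measured) were chosen with earlier results of these data known. Genes were named by rule: the 12 largest called rises and falls, up to 3 called each way per list, a fixed set of pathway genes, and genes that differed most between donors or oxygen levels. Other list members named were chosen after their values were seen. Alternatives were fits without the donor term, with donor as a random block or on 6 arrays, quantile normalisation, a filter on dim probe sets, a trended prior, 1 probe set per symbol, and leaving out each donor or array.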

Additional observations from a re-analysis of the deposited data

Results flagged for a closer look

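Of the genes named for their difference between oxygen levels, 2 had differences of opposite sign at 21% and 2% oxygen in every donor. LAMTOR5, a subunit of the lysosomal complex that recruits mTORC1, differed by -0.36 ± 0.082 at 21% and 0.20 ± 0.082 at 2%, so that the response at 21% minus that at 2% was -0.561237 on the log2 scale. VAMP4, a vesicle fusion protein of the Golgi, differed by -0.12 ± 0.08 and 0.35 ± 0.08, and the difference was -0.476443. By limma the difference between the responses had an adjusted p of 0.999 for each, so neither passed the correction over 26773 probe sets. The fall of LAMTOR5 at 21% (adjusted p = 0.0324) was lost without each single array.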

How the results depend on the processing

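Calls depended on how the donors entered the test. No called gene named here changed its direction, but each had differences of a single sign over its 3 donors. Leaving out a donor could therefore not reverse it, so this does not measure how firm the directions are. At 21% oxygen 1701 probe sets were called (789 higher, 912 lower). With no replicate block, that is without the pairing by donor, there were 736 (342 and 394), and with the replicate block on only the 6 arrays at 21% there were 636 (283 and 353). Asking for at least 2-fold left 306 (145 and 161). Leaving out 1 donor or 1 array gave 181 to 1068 calls (85 to 501 higher, 96 to 570 lower). A random block, quantile normalisation, a filter on dim probe sets, a trended prior and 1 probe set per symbol gave 1382 to 2371. At 2% oxygen the 1869 calls became 817 without the pairing and 345 with at least 2-fold, and 242 to 1921 on leaving out 1 donor or array. The difference between oxygen levels had 0 calls, and 0 to 1 on leaving out 1 donor or array. Of 183 named genes 166 were called at 21%. Of these 71 lost the call without the pairing, 26 with a random block, 49 on 6 arrays and 2 after quantile normalisation. Without donors 1, 2 and 3 the call was lost by 86, 113 and 45, and 49 genes kept it without each donor in turn.

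The sign changed only for genes that were not called, which the single sign of called genes over the donors largely fixed in advance. On leaving out 1 donor or array, TGFB1 ranged from -0.121 to 0.10, TGFBR1 from -0.103 to 0.00905, SOX9 from -0.138 to 0.0645, COL1A1 from -0.0485 to 0.0717, BOLA-DQB1 from -0.38 to 1.12 and MGP from -0.719 to 0.66. The reversals came without donor 3 or 1 of its arrays, and for BOLA-DQB1 without donor 2 or its untreated array. COL1A1 became 0.00944 after quantile normalisation. The causes were not tested. With 3 donors, and no detection call for dim probe sets, small changes are not resolved.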

Other observations

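Some genes known as targets of low oxygen rose with TGF-β3 while oxygen stayed at 21%. Of 23 measured genes of a hypoxia response list 6 rose and 1 fell (30.4% called, against 6.35% of all probe sets), with a median of 0.29. Besides SLC2A1, PLOD2 and VEGFA, which other lists hold too, the secreted glycoprotein gene STC2 rose by 0.81 ± 0.18 (adjusted p = 0.0261), BNIP3, which marks mitochondria for removal, by 0.79 ± 0.20 (adjusted p = 0.0457) and the repressor gene BHLHE40 by 0.45 ± 0.094 (adjusted p = 0.0227). VLDLR, a lipoprotein receptor, fell by 0.66 ± 0.15 (adjusted p = 0.0315). STC2 lost the call without treated donor 1, 2 or 3 or untreated donor 1 or 2 (adjusted p up to 0.122), and BNIP3 and BHLHE40 without treated donor 2 or 3 or untreated donor 1, 2 or 3 (adjusted p up to 0.177). VLDLR lost the call without each of the 6 arrays in turn (adjusted p up to 0.136). STC2, BNIP3 and BHLHE40 were not called without the donor term (adjusted p between 0.119 and 0.299). Of the hypoxia list, the 6 rises became 2 to 7 on leaving out 1 array (over 1.5 times apart without treated donor 2 or 3 or untreated donor 1, 2 or 3) and 3 without the donor term.

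Among 33 ion channel and calcium handling genes 1 rose and 3 fell (12.1% called, against 6.35% of all probe sets). That is near the share of named genes at large, as 1964 of 18092 symbols were called with 1 probe set each. ANO1, a calcium-activated chloride channel, rose by 1.22 ± 0.19 (adjusted p = 0.00654). ITPR3, which releases calcium from the endoplasmic reticulum, fell by 1.21 ± 0.20 (adjusted p = 0.00874) and KCNMA1, a calcium-activated potassium channel, by 0.58 ± 0.072 (adjusted p = 0.00197). CREB3L2, a transcription factor that expands secretory capacity in chondrocytes, rose by 0.77 ± 0.072 (adjusted p = 0.000485) with 10.64, 10.78 and 10.43 without TGF-β3 and 11.47, 11.43 and 11.26 with it, and it was the called gene among 21 of the unfolded protein response. GPX3, a secreted peroxidase, fell by 1.58 ± 0.31 (adjusted p = 0.0174). No gene of sterol synthesis was called by limma (12 measured, unadjusted p under 0.05 for 2, and for 0 without the donor term). Donor 3 went the other way there, with medians of -0.34, -0.24 and 0.20 in donors 1, 2 and 3. ITPR3 lost the call without untreated donor 2 (adjusted p = 0.0521), and GPX3 without treated donor 2 or untreated donor 2 or 3 (adjusted p up to 0.0877). ANO1, ITPR3 and KCNMA1 were not called without the donor term (adjusted p between 0.079 and 0.425). Of the ion channel list, the 3 falls became 1 without the donor term.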
